A study of Mus musculus with 24 samples.

Results

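The genes described here encode the complement and coagulation factors that the liver secretes into blood, with the inhibitors that restrain them. They were chosen by name, as 36 listed gene symbols: 15 of complement, 16 of coagulation and fibrinolysis, and 5 inhibitors. Of these, 35 had a row among the 15161 genes of the deposited count table. The level of Klkb1, the gene of plasma kallikrein, was not analysed here. Livers came from male mice of the inbred strain C57BL6/J, aged 4 months, and their RNA was sequenced in 4 diet groups of 6 libraries. Elemental MR was a methionine-restricted diet with free amino acids and 0.17% methionine, and its control held 0.86% methionine from free amino acids. Casein MR held 0.17% methionine with oxidized casein as protein, and its control held 0.86% methionine with casein. Casein is the main milk protein. The casein control was not labelled as oxidized, so restriction and oxidation cannot be told apart in the casein groups. The labels do not say that the libraries are separate mice. The p-values set differences between groups only against the spread of these samples within groups, and that spread may be technical.

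Complement is a cascade of plasma proteins that marks and kills microbes. Recognition proteins such as the mannose-binding lectins activate serine proteases, these build enzymes that cleave C3, and the late components C5 to C9 assemble into a pore called the membrane attack complex. Coagulation is another protease cascade, in which vitamin K-dependent factors lead to thrombin, which turns fibrinogen into fibrin, while plasmin dissolves fibrin and serpins hold both systems back. Hepatocytes make most of these proteins.

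The libraries held 13.5 to 20.8 M counted reads each, and 13441 genes passed the filter on low counts, all 35 genes described here among them; the lowest mean count over the 24 libraries was 27.9, that of Masp1. Levels are given as counts per M reads (CPM) after trimmed-mean scaling of library sizes (TMM), a method that lines up the bulk of genes between libraries. Fold changes and p-values come from edgeR's quasi-likelihood test, fitted to all 24 libraries and adjusted by Benjamini and Hochberg's method over the 13441 genes. A gene was called at an adjusted p under 0.05. Log2 fold changes are given ± SE, from 6 libraries in each group, and all of them are MR over control unless stated otherwise. In whole liver, fewer cells of a type and less RNA per cell cannot be told apart. Strand use in counting was not given, and the exons of Masp2, Serpinc1 and Plg overlap genes on the opposite strand over 54.9, 34.4 and 11.3% of their length, while Cfb and C2 share 79.5 and 42.8% with other genes of the locus. C4b and Kng1 have near-identical copies. The values of these 7 genes are uncertain to that extent.

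Promoter windows of 6 genes are shown for the genes that the results turn on: C9, C8a and C8b for the membrane attack genes that fell, C3 as the gene that rose, and Fga and Fgb for fibrinogen. Each is the 250 bases before the transcription start in RefSeq's GRCm38.p6, 5′ to 3′ on the gene's strand. Capitals mark matches, on either strand, to GTTAAT (the core repeat of the site of hepatocyte factor HNF1), TTGCNNAA (a C/EBP site) or TTCNNNGAA (a STAT site). These are letter matches only. C9 lies on the plus strand at chr15:6445096-6445345, C8a on the minus strand at chr4:104876399-104876648 and C8b on the plus strand at chr4:104766067-104766316. C3 lies on the minus strand at chr17:57228137-57228386, Fga on the plus strand at chr3:83025903-83026152 and Fgb on the minus strand at chr3:83049864-83050113.
C9: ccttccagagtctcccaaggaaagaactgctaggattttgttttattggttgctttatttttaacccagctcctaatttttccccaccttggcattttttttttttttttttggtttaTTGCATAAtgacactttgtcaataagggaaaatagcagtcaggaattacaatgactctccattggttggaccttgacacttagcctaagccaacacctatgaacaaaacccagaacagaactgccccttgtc
C8a: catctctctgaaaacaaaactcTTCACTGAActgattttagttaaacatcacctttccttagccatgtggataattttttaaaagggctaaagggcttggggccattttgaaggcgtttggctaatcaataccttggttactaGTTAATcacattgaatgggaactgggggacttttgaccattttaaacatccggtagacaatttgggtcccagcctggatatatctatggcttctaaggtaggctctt
C8b: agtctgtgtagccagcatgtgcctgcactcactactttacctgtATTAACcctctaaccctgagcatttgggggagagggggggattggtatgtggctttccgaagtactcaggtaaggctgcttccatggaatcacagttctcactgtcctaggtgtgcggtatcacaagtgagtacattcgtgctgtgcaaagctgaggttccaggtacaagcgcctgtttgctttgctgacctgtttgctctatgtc
C3: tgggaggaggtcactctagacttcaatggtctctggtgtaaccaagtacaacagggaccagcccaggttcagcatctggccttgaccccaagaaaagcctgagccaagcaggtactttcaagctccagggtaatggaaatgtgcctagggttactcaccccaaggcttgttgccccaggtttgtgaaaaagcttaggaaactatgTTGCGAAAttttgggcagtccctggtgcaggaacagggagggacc
Fga: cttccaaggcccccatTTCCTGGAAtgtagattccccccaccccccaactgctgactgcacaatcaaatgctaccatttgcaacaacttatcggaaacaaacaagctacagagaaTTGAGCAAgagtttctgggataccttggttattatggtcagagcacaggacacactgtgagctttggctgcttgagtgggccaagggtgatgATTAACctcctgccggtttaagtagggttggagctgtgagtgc
Fgb: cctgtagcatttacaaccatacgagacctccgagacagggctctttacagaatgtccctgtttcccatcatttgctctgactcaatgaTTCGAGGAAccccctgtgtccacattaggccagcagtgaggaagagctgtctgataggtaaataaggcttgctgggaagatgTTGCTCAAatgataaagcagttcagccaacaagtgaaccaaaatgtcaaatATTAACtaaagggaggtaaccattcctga

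The C/EBP match in C9 begins 132 bases before the start, and that of C3 begins 45 bases before it. C8a holds an HNF1 core 107 bases and a STAT match 228 bases before the start, and C8b holds an HNF1 core 206 bases before it. Fga and Fgb each hold all 3 kinds of match, with the HNF1 core 43 and 29 bases before the start. Among the 27 listed genes with a RefSeq window, counted over 250 bases before and 50 after the start, GTTAAT occurred in 8 (29.6%), against 7.2% of 27025 promoters. TTGCNNAA occurred in 9 (33.3%, against 10.8%) and TTCNNNGAA in 6 (22.2%, against 8.47%). Klkb1, whose level was not analysed, is among the 27 and among the 9. The HNF4 sequence CAAAGTCCA occurred in 0 of the 27 and in 0.477% of all promoters. GTTAAT was about as frequent in the complement windows (3 of 10) as in those of coagulation and inhibitors (5 of 17). No 2 matches in these windows overlapped.

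Some libraries stood apart, and they are named here as labelled (E for elemental, C for casein, then MR or C for control, then a number). All 7 skeletal muscle markers were called higher with casein MR, and their sum was 1772 CPM in C_MR_3438, 62.2 CPM in C_MR_3425 and at most 29.4 CPM in the other 22 libraries. Without C_MR_3438 the numbers of the 35 genes called were 15 with elemental MR, 31 with casein MR, 15 in the difference and 25 between the restricted diets, against 15, 31, 16 and 27 with all 24 libraries, and no log2 fold change moved by more than 0.0931. The library C_C_3407 was the lowest of casein control for 27 of the 35 genes, with a median of 19.6% below the group median, and E_C_3428 was the lowest of elemental control for 24, with 9.96%. C_C_3407 was also the highest library for Col1a1 (23.3 CPM, median of all libraries 6.04) and Spp1 (36.3 CPM, median 12). Other stellate and cholangiocyte markers, such as Dcn and Sox9, peaked in other libraries. C_MR_3431 was highest for most Kupffer cell and macrophage markers, among them Csf1r (168 CPM, median 101), but not for Cd5l and Marco. It was also highest for each platelet marker with a row, among them Pf4 (11.3 CPM, median 3.14), and for S100a8 and S100a9. Some other cell type markers peaked in other libraries. The part of these markers in the results was not tested. The median coefficient of variation of the 35 genes was 6.00% in elemental MR and 7.31% in elemental control, and 7.12% in casein MR and 12.8% in casein control. For 1266 genes of at least 100 CPM it was 7.06% in elemental MR and 7.53% in elemental control, and 7.71% in casein MR and 9.75% in casein control. Without C_C_3407, C9 had a casein MR value of -3.32 (adjusted p = 1.26e-10) and C6 one of -2.92 (adjusted p = 9.96e-11).

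**Figure D1:**
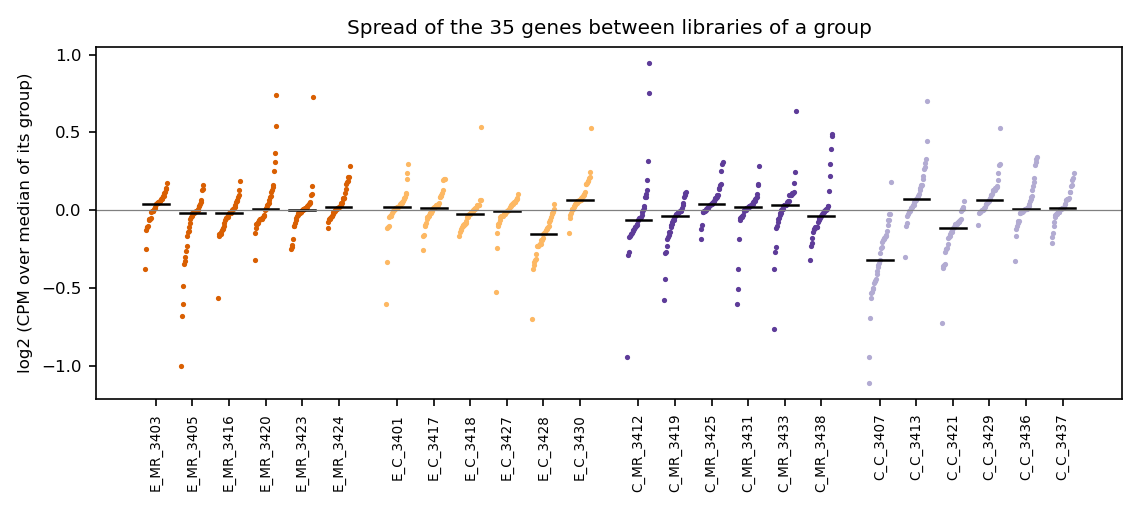
Log2 ratio of each of the 35 genes to its group median in every library, with the median over genes as a bar. C_C_3407 lies lowest, with most of its genes below 0, and E_C_3428 is the lowest of the elemental control libraries.

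Under methionine restriction more of these transcripts fell than rose with either protein source. With elemental MR the margin depended on the scaling of libraries: on plain library totals, 8 fell and 6 rose. The shares of all genes tested given below belong to the trimmed-mean scaling. Those shares were not matched for level. Most of the 35 genes had high counts, while the genes tested reach down to the filter on low counts. In elemental MR against elemental control, 14 of the 35 genes fell and 1 rose, or 42.9% called, against 13.4% of all genes tested (6.64% lower and 6.78% higher). The median log2 fold change of the 35 was -0.19. In casein MR against casein control, 31 fell and 0 rose, or 88.6% called, against 23.3% of all genes tested (12.7% lower and 10.6% higher), and the median was -0.55. The median over all genes tested was close to 0 in both. The 14 genes that fell with elemental MR also fell with casein MR. They are C4b, Hc, C6, C8a, C8b, C8g, C9, Cfi and Masp2 of complement and F11, Fga, Fgg, Plg and Cpb2 of coagulation. C3 rose with elemental MR, and Cfb, Mbl1 and Mbl2 did not pass the test in either comparison. The remaining 17 genes fell with casein MR and did not pass with elemental MR. Groups did not overlap for 12 of the 35 genes with elemental MR, against 6.83% of all genes tested, and for 26 with casein MR, against 11%.

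**Figure D2:**
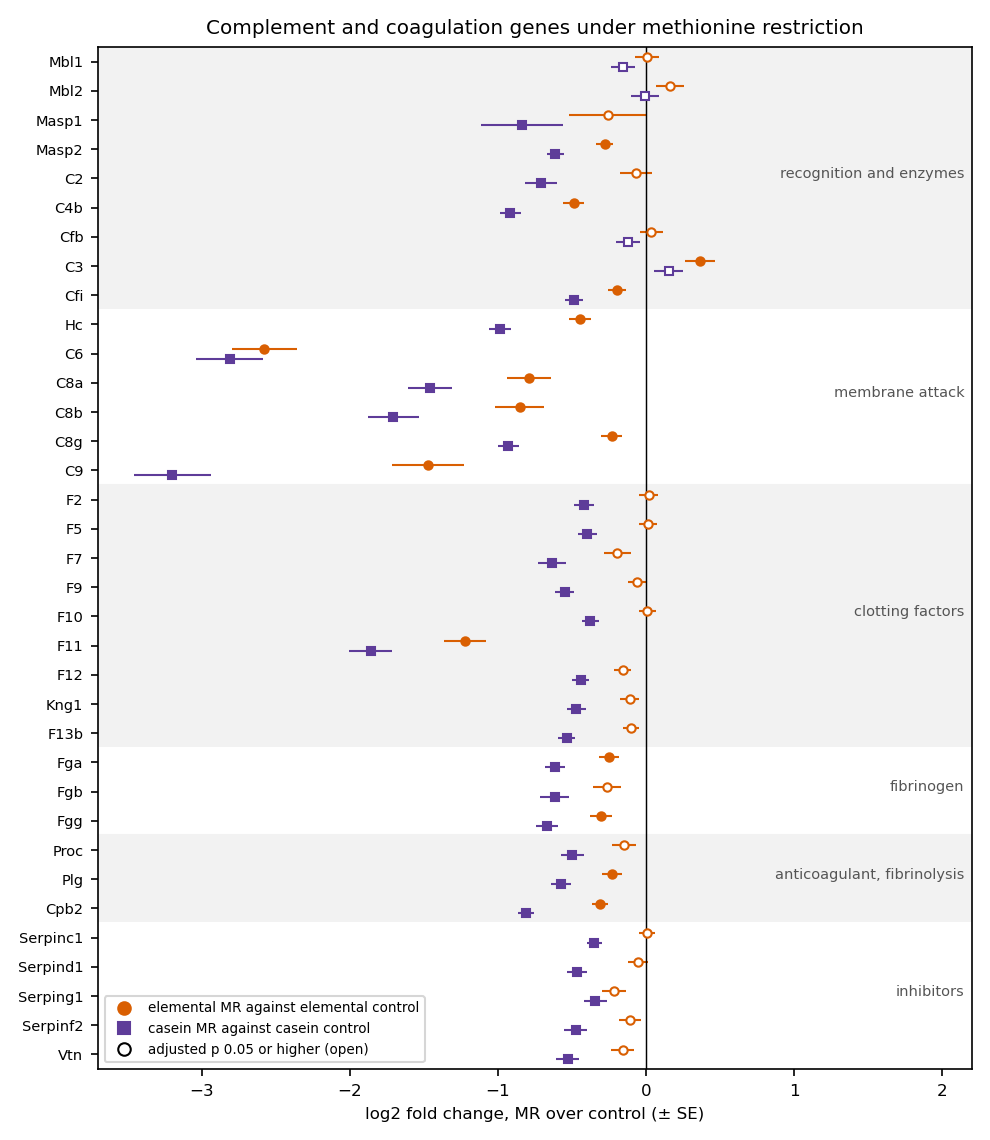
Log2 fold change (MR over control, ± SE, 6 libraries a group) of the 35 genes for elemental MR (circles) and casein MR (squares), ordered by role, with open symbols where the adjusted p was 0.05 or higher. Among the squares, the 6 membrane attack genes and F11 reach the lowest values, C3 lies to the right of 0, and each square of a coagulation gene or inhibitor lies left of its circle.

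Genes of the membrane attack complex held the 2 largest falls of each comparison, those of C6 and C9. All 6 measured genes of this step fell in both comparisons (the elemental call of C8g was lost on library totals, adjusted p = 0.335), with a median log2 fold change of -0.82 for elemental MR and -1.58 for casein MR. Their summed level was 1359 ± 181 CPM in elemental MR and 2366 ± 195 CPM in elemental control, and 853 ± 91.1 CPM in casein MR and 2524 ± 502 CPM in casein control (SD, n = 6 each). Neither MR group overlapped its control in that sum.

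C9, whose protein polymerises into the wall of the pore, ran from 80.2 to 234 CPM (median 160.4) in elemental MR, against 362 to 516 CPM (median 449) in elemental control. C9 ran from 30.9 to 88.3 CPM (median 52.3) in casein MR, against 268 to 681 CPM (median 578) in casein control. All 6 MR libraries lay below all 6 control libraries with either protein, and casein MR and elemental MR libraries overlapped slightly. C9 showed a log2 fold change of -1.47 ± 0.24 (adjusted p = 0.000112) with elemental MR and -3.20 ± 0.26 (adjusted p = 4.36e-10) with casein MR. The fall was 2.77-fold with elemental MR and 9.17-fold with casein MR.

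C6, which joins C5 to start the assembly, ran from 24.8 to 53.9 CPM (median 32.2) in elemental MR, against 147 to 243 CPM (median 212) in elemental control. C6 ran from 23.2 to 53.7 CPM (median 27.9) in casein MR, against 128 to 312 CPM (median 246) in casein control. The MR groups lay far below their controls and covered nearly the same range as each other. C6 showed a log2 fold change of -2.58 ± 0.22 (adjusted p = 6.90e-09) with elemental MR and -2.81 ± 0.22 (adjusted p = 3.66e-10) with casein MR. The difference between the MR effects on C6 was -0.23 ± 0.30 (adjusted p = 0.838).

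C8a and C8b encode the alpha and beta chains of C8, which anchors the complex in the membrane, and they are neighbours on chromosome 4. C8a levels ran from 182 to 336 CPM (median 276) in elemental MR, against 377 to 549 CPM (median 480.0) in elemental control, and from 143 to 231 CPM (median 186) in casein MR, against 364 to 639.5 CPM (median 516) in casein control. C8b ran from 139 to 276 CPM (median 223) in elemental MR, against 328 to 456 CPM (median 387) in elemental control, and from 80.4 to 142 CPM (median 122) in casein MR, against 238 to 482 CPM (median 384) in casein control. For both genes, every MR library lay below every control library of its protein. Log2 fold changes of C8a were -0.79 ± 0.15 (adjusted p = 0.000529) for elemental MR and -1.46 ± 0.15 (adjusted p = 3.57e-08) for casein MR, and those of C8b were -0.85 ± 0.17 (adjusted p = 0.000836) and -1.71 ± 0.17 (adjusted p = 2.26e-08).

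C8g, the gamma chain of C8, which lies on another chromosome, ran from 325 to 389 CPM (median 351) in elemental MR, against 382 to 467 CPM (median 411) in elemental control. C8g ran from 198 to 239 CPM (median 232) in casein MR, against 357 to 499 CPM (median 432) in casein control. The elemental groups overlapped, while the casein groups were far apart. C8g showed a log2 fold change of -0.23 ± 0.07 (adjusted p = 0.0299) with elemental MR and -0.93 ± 0.07 (adjusted p = 1.86e-10) with casein MR. The call with elemental MR was lost in 5 of 24 refits without 1 library (highest adjusted p = 0.0938).

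Hc, which encodes C5, the precursor of the anaphylatoxin C5a and the seed of the pore, ran from 289 to 341 CPM (median 323) in elemental MR, against 379.5 to 460.5 CPM (median 446) in elemental control. Hc ran from 231 to 250.5 CPM (median 240.4) in casein MR, against 359.6 to 532 CPM (median 508) in casein control. Groups did not overlap with either protein, and the casein MR libraries lay within a narrow range below all elemental MR libraries. Hc showed a log2 fold change of -0.45 ± 0.07 (adjusted p = 0.000141) with elemental MR and -0.98 ± 0.07 (adjusted p = 1.60e-10) with casein MR.

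**Figure D3:**
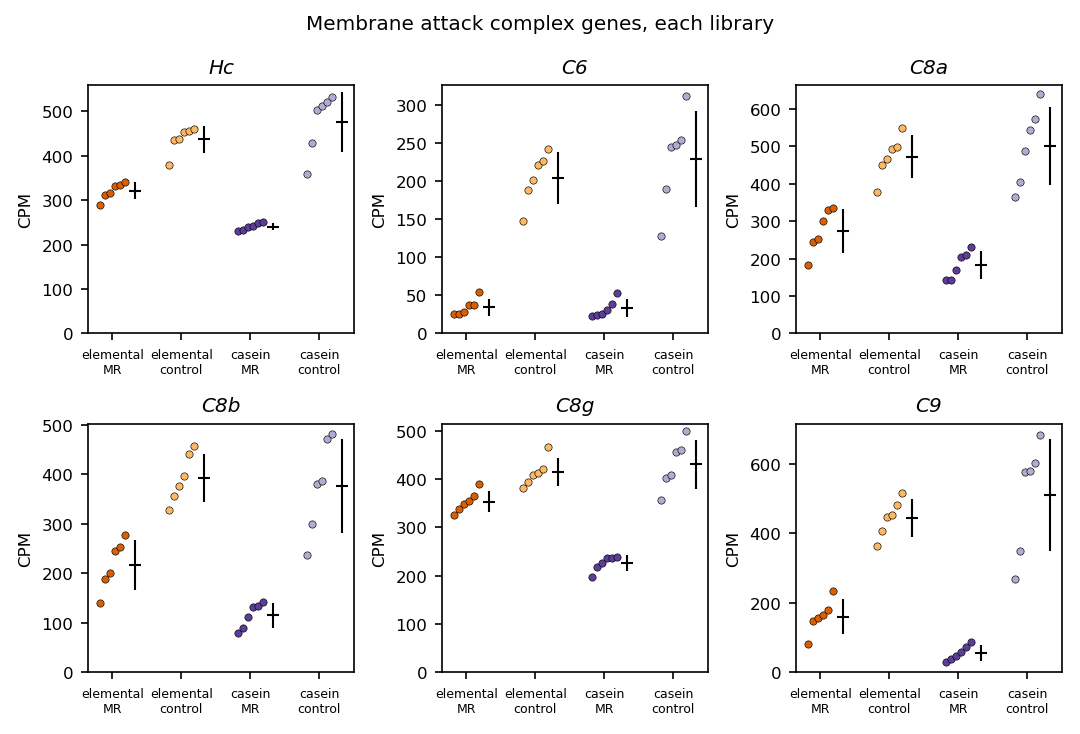
Level (CPM) of the 6 membrane attack genes in each of the 24 libraries, by diet group, with mean and SD (n = 6). For C6 the 2 MR groups sit at like levels, from 23.2 to 53.9 CPM, while for C9 casein MR (30.9 to 88.3 CPM) lies mostly below elemental MR (80.2 to 234 CPM).

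Among the earlier complement proteins, C4b, C2 and the lectin proteases fell with casein MR, while the lectins did not pass the test. C4b, a source of the classical and lectin pathway C3 convertase, ran from 238 to 319.5 CPM (median 292) in elemental MR, against 340.3 to 441 CPM (median 413) in elemental control. C4b ran from 213 to 253 CPM (median 250.4) in casein MR, against 425 to 498 CPM (median 454) in casein control. No MR library overlapped its control group. C4b showed a log2 fold change of -0.49 ± 0.07 (adjusted p = 2.62e-05) with elemental MR and -0.92 ± 0.07 (adjusted p = 2.77e-10) with casein MR.

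C2, the protease subunit of that convertase, ran from 53.7 to 66.9 CPM (median 62.9) in elemental MR, against 51.0 to 79.0 CPM (median 64.2) in elemental control. C2 ran from 36.6 to 49.3 CPM (median 45.7) in casein MR, against 58.5 to 91.5 CPM (median 67.2) in casein control. The elemental groups overlapped, while casein MR lay below casein control. C2 showed a log2 fold change of -0.07 ± 0.11 (adjusted p = 0.746) with elemental MR and -0.71 ± 0.11 (adjusted p = 1.58e-05) with casein MR.

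Masp2, the mannose-binding lectin protease that cleaves C4 and C2, ran from 139 to 152 CPM (median 143) in elemental MR, against 163 to 198 CPM (median 171) in elemental control. Masp2 ran from 105 to 127 CPM (median 118) in casein MR, against 164 to 188 CPM (median 178) in casein control. MR and control groups were separate with both proteins. Masp2 showed a log2 fold change of -0.28 ± 0.06 (adjusted p = 0.00148) with elemental MR and -0.61 ± 0.06 (adjusted p = 8.67e-09) with casein MR. The elemental call of Masp2 was lost on library totals (-0.14, adjusted p = 0.0643). Its relative Masp1, which activates Masp2, had few reads, at 1.77 ± 0.613 CPM in elemental MR and 2.14 ± 0.600 CPM in elemental control, and at 1.01 ± 0.360 CPM in casein MR and 1.82 ± 0.587 CPM in casein control (SD, n = 6). For Masp1 the log2 fold changes were -0.26 ± 0.26 (adjusted p = 0.59) and -0.84 ± 0.28 (adjusted p = 0.0271), and the casein call was lost in 5 of 24 refits without 1 library (highest adjusted p = 0.0860) and on library totals (adjusted p = 0.0815).

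Mbl1 and Mbl2 encode the mannose-binding lectins, which recognise sugars on microbes. Mbl1 averaged 179.7 ± 9.49 CPM in elemental MR and 179 ± 6.66 CPM in elemental control, and 148 ± 16.1 CPM in casein MR and 165 ± 25.5 CPM in casein control (SD, n = 6). Mbl2 averaged 440.0 ± 47.0 CPM in elemental MR and 393 ± 34.4 CPM in elemental control, and 437 ± 52.6 CPM in casein MR and 439 ± 62.0 CPM in casein control. All of these groups overlapped, and no MR comparison passed the test for either lectin; for Mbl1 with casein MR the adjusted p was 0.180, and it was 0.0210 without the control library C_C_3407 and 0.0479 without the MR library C_MR_3425. Cfb, factor B of the alternative pathway, had log2 fold changes of 0.04 ± 0.08 (adjusted p = 0.837) and -0.12 ± 0.08 (adjusted p = 0.306). Cfi, the protease that inactivates C3b and C4b, fell with both diets, at -0.19 ± 0.06 (adjusted p = 0.0323) and -0.49 ± 0.06 (adjusted p = 6.88e-07). The elemental call of Cfi was lost in 8 of 24 refits without 1 library (highest adjusted p = 0.0753), and on library totals (-0.052, adjusted p = 0.537).

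C3, the central protein of all complement pathways, ran from 2996 to 3721 CPM (median 3319) in elemental MR, against 2108 to 2928 CPM (median 2729.6) in elemental control. C3 ran from 2361 to 2934 CPM (median 2771) in casein MR, against 1691 to 2853 CPM (median 2494) in casein control. With elemental MR every library lay above every control library, while the casein groups overlapped. C3 showed a log2 fold change of 0.36 ± 0.10 (adjusted p = 0.0148) with elemental MR and 0.15 ± 0.10 (adjusted p = 0.315) with casein MR. C3 was the only one of the 35 genes called higher in any of the 5 comparisons on this scaling. The effects of MR on C3 with casein and with elemental amino acids differed by -0.21 ± 0.14 (adjusted p = 0.609), so the 2 effects were not shown to differ.

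Fibrinogen is made of 3 chains encoded by Fga, Fgb and Fgg, which lie side by side on chromosome 3. The 3 chains had log2 fold changes of like size. Fga, the alpha chain, ran from 1769 to 1913 CPM (median 1844) in elemental MR, against 2107 to 2356 CPM (median 2191) in elemental control. Fga ran from 1318 to 1473 CPM (median 1420.0) in casein MR, against 1646 to 2416 CPM (median 2183) in casein control. Fgb, the beta chain, ran from 7735 to 8990.3 CPM (median 8306) in elemental MR, against 8937 to 10819 CPM (median 10178) in elemental control, and from 6179.6 to 7572 CPM (median 6981) in casein MR, against 7666 to 13323 CPM (median 10606) in casein control. Fgg, the gamma chain, ran from 2313 to 2471 CPM (median 2406) in elemental MR, against 2749 to 3148 CPM (median 2984) in elemental control, and from 1696 to 1988 CPM (median 1869.7) in casein MR, against 2213 to 3499 CPM (median 3029) in casein control. The groups were separate for each chain and protein, except that Fgb overlapped in the elemental groups. Log2 fold changes for elemental MR were -0.25 ± 0.07 (adjusted p = 0.013) for Fga, -0.27 ± 0.10 (adjusted p = 0.0667) for Fgb and -0.30 ± 0.08 (adjusted p = 0.00678) for Fgg. On library totals the elemental calls of Fga (-0.11, adjusted p = 0.189) and Fgg (-0.16, adjusted p = 0.0729) were lost. For casein MR the log2 fold changes of the chains, in the same order, were -0.61 ± 0.07 (adjusted p = 1.30e-07), -0.62 ± 0.10 (adjusted p = 1.97e-05) and -0.67 ± 0.08 (adjusted p = 1.64e-07). Fgb thus missed the threshold with elemental MR at a size close to that of the called chains, and it was called in 2 of 24 refits without 1 library (adjusted p = 0.0256 without C_C_3407 and 0.0446 without C_C_3436).

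The contact factors start clotting on negatively charged surfaces. F11, factor XI, which activates factor IX, ran from 12.4 to 19.6 CPM (median 17.3) in elemental MR, against 25.5 to 48.9 CPM (median 41.3) in elemental control. F11 ran from 8.09 to 14.8 CPM (median 12.1) in casein MR, against 36.4 to 53.1 CPM (median 42.9) in casein control. The MR libraries lay below their controls without overlap. F11 showed a log2 fold change of -1.22 ± 0.14 (adjusted p = 1.17e-06) with elemental MR and -1.86 ± 0.15 (adjusted p = 2.86e-10) with casein MR. F11 lies beside the gene of plasma kallikrein on chromosome 8. Kng1, kininogen, the carrier of factor XI and source of bradykinin, ran from 1486 to 1652 CPM (median 1582) in elemental MR, against 1551 to 1823 CPM (median 1738) in elemental control. Kng1 ran from 1101 to 1377 CPM (median 1220.0) in casein MR, against 1531 to 1979 CPM (median 1644) in casein control. The elemental groups overlapped and the casein groups did not. Kng1 showed a log2 fold change of -0.11 ± 0.07 (adjusted p = 0.295) with elemental MR and -0.47 ± 0.07 (adjusted p = 4.09e-06) with casein MR. F12, factor XII, had log2 fold changes of -0.16 ± 0.06 (adjusted p = 0.0637) and -0.44 ± 0.06 (adjusted p = 1.14e-06); its elemental value was called in 2 of 24 refits without 1 library, at adjusted p = 0.0441 without C_C_3407 and 0.0298 without E_C_3428.

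The 5 genes of vitamin K-dependent proteins (F2, F7, F9, F10 and Proc) did not pass with elemental MR, with a median log2 fold change of -0.06 (F2 and F10 were called higher there on plain library totals, given further on), and all 5 fell with casein MR (the call of F10 was lost on library totals), with a median of -0.50. F2, prothrombin, ran from 1628 to 1789 CPM (median 1723) in elemental MR, against 1499 to 1793 CPM (median 1742) in elemental control. F2 ran from 1259.9 to 1448 CPM (median 1355) in casein MR, against 1448 to 2092 CPM (median 1847) in casein control. The elemental groups covered the same range, and in casein the highest MR library met the lowest control library. F2 showed a log2 fold change of 0.02 ± 0.07 (adjusted p = 0.91) with elemental MR and -0.42 ± 0.07 (adjusted p = 2.25e-05) with casein MR.

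F9, factor IX, the protein lacking in haemophilia B, ran from 322 to 359 CPM (median 347) in elemental MR, against 326 to 406 CPM (median 359) in elemental control. F9 ran from 250.2 to 285 CPM (median 268) in casein MR, against 343 to 446 CPM (median 398) in casein control. Only the casein groups were separate. F9 showed a log2 fold change of -0.06 ± 0.06 (adjusted p = 0.601) with elemental MR and -0.55 ± 0.06 (adjusted p = 1.90e-07) with casein MR. F10, factor X, which cleaves prothrombin, ran from 443 to 468 CPM (median 453) in elemental MR, against 413 to 466.03 CPM (median 457) in elemental control. F10 ran from 304 to 355 CPM (median 331) in casein MR, against 372 to 483 CPM (median 419.8) in casein control. The casein groups were separate, and the elemental groups overlapped, with 1 control library below the rest. F10 showed a log2 fold change of 0.01 ± 0.06 (adjusted p = 0.956) with elemental MR and -0.38 ± 0.06 (adjusted p = 1.31e-05) with casein MR.

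F7, factor VII, which starts clotting with tissue factor, is next to F10 on chromosome 8. Its log2 fold changes were -0.19 ± 0.09 (adjusted p = 0.18) and -0.64 ± 0.09 (adjusted p = 7.20e-06). Proc encodes protein C, an anticoagulant that destroys factors V and VIII, and its values were -0.15 ± 0.08 (adjusted p = 0.246) and -0.50 ± 0.08 (adjusted p = 2.91e-05). F5, factor V, the cofactor of factor Xa, ran from 1063 to 1260.0 CPM (median 1122) in elemental MR, against 977 to 1205 CPM (median 1143) in elemental control. F5 ran from 861 to 1003 CPM (median 929) in casein MR, against 1072 to 1351 CPM (median 1210.2) in casein control. The casein groups were separate and the elemental groups were not. F5 showed a log2 fold change of 0.01 ± 0.06 (adjusted p = 0.93) with elemental MR and -0.40 ± 0.06 (adjusted p = 2.34e-05) with casein MR. F13b, the carrier subunit of the factor that cross-links fibrin, ran from 209.7 to 243 CPM (median 222) in elemental MR, against 223 to 258 CPM (median 239.6) in elemental control. F13b ran from 158 to 190.5 CPM (median 178) in casein MR, against 237 to 277 CPM (median 260.4) in casein control. Again only the casein groups did not overlap. F13b showed a log2 fold change of -0.10 ± 0.06 (adjusted p = 0.261) with elemental MR and -0.54 ± 0.06 (adjusted p = 3.62e-08) with casein MR.

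Of the fibrinolysis genes, Plg encodes plasminogen, the precursor of plasmin. It averaged 1660.3 ± 77.5 CPM in elemental MR and 1946 ± 142 CPM in elemental control, and 1352 ± 74.3 CPM in casein MR and 2011 ± 228 CPM in casein control (SD, n = 6). Its log2 fold changes were -0.23 ± 0.07 (adjusted p = 0.0231) and -0.57 ± 0.07 (adjusted p = 3.15e-07), and the elemental call was lost without E_MR_3405, E_C_3427 or E_C_3430 (highest adjusted p = 0.0642), and on library totals, where the value was -0.086 (adjusted p = 0.307). Cpb2, whose product slows fibrin breakdown once thrombin activates it, ran from 186 to 214 CPM (median 199.5) in elemental MR, against 228 to 263 CPM (median 244) in elemental control. Cpb2 ran from 148 to 163 CPM (median 159) in casein MR, against 241 to 298 CPM (median 283) in casein control. Neither MR group overlapped its control, and the casein MR libraries were close together. Cpb2 showed a log2 fold change of -0.31 ± 0.05 (adjusted p = 0.000243) with elemental MR and -0.81 ± 0.05 (adjusted p = 2.13e-11) with casein MR. Cpb2 had the smallest p of the 35 genes with casein MR.

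The 5 inhibitors did not pass with elemental MR, where Serpinc1 was called higher on plain library totals, and all fell with casein MR, where the calls of Serpinc1 and Serping1 were lost on that scale. Serpinc1, antithrombin, which blocks thrombin and factor Xa, ran from 1419.9 to 1557 CPM (median 1497) in elemental MR, against 1407 to 1525 CPM (median 1505) in elemental control. Serpinc1 ran from 1046 to 1256 CPM (median 1174) in casein MR, against 1343 to 1566 CPM (median 1501) in casein control. Casein MR lay below casein control without overlap, and the elemental groups coincided. Serpinc1 showed a log2 fold change of 0.01 ± 0.05 (adjusted p = 0.962) with elemental MR and -0.35 ± 0.05 (adjusted p = 8.46e-06) with casein MR. Serpind1, heparin cofactor II, ran from 312 to 382 CPM (median 335) in elemental MR, against 307 to 380.3 CPM (median 356) in elemental control. Serpind1 ran from 265 to 297 CPM (median 276) in casein MR, against 313 to 414 CPM (median 402) in casein control. The same groups were separate as for antithrombin. Serpind1 showed a log2 fold change of -0.06 ± 0.07 (adjusted p = 0.662) with elemental MR and -0.47 ± 0.07 (adjusted p = 6.38e-06) with casein MR.

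Serpinf2, alpha-2-antiplasmin, the inhibitor of plasmin, ran from 403 to 464 CPM (median 436) in elemental MR, against 409 to 518 CPM (median 478) in elemental control. Serpinf2 ran from 301 to 391 CPM (median 362) in casein MR, against 397 to 547 CPM (median 502) in casein control. Only the casein groups were separate. Serpinf2 showed a log2 fold change of -0.11 ± 0.08 (adjusted p = 0.407) with elemental MR and -0.48 ± 0.08 (adjusted p = 2.51e-05) with casein MR. Vtn, vitronectin, which binds the late complement complex and stabilises a plasminogen activator inhibitor, ran from 1443 to 1665 CPM (median 1618) in elemental MR, against 1583 to 1899.7 CPM (median 1758) in elemental control. Vtn ran from 1078 to 1199 CPM (median 1117) in casein MR, against 1181 to 1859.8 CPM (median 1699.8) in casein control. All groups overlapped their controls, in casein by 1 low control library. Vtn showed a log2 fold change of -0.16 ± 0.08 (adjusted p = 0.201) with elemental MR and -0.53 ± 0.08 (adjusted p = 1.02e-05) with casein MR. Serping1, the C1 inhibitor that blocks complement and contact proteases, had log2 fold changes of -0.22 ± 0.08 (adjusted p = 0.0659) and -0.34 ± 0.08 (adjusted p = 0.00166). Its elemental value was called in 2 of 24 refits, at adjusted p = 0.0316 without C_C_3407 and 0.0347 without E_C_3428.

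**Figure D4:**
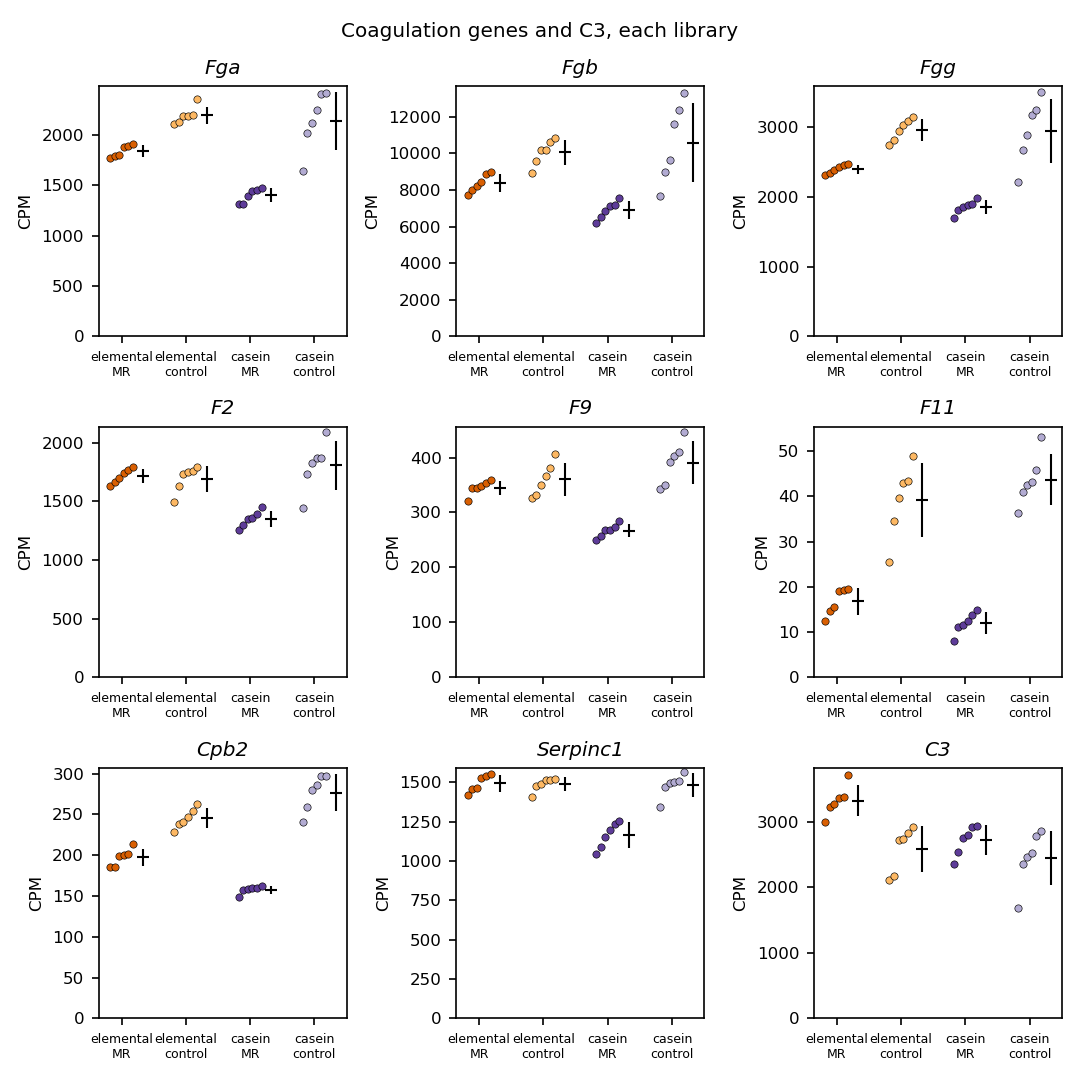
Level (CPM) in each library of the 3 fibrinogen chains, 5 other coagulation genes and C3, by diet group, with mean and SD (n = 6). F2, F9 and Serpinc1 show elemental MR at the level of elemental control and casein MR below, F11 and Cpb2 are lower in both MR groups, and C3 is higher in elemental MR.

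Complement and coagulation differed in how the changes were spread over the genes, as a description without a test. With elemental MR, 9 of 15 complement genes fell and 1 rose (median log2 fold change -0.26), against 5 of 20 coagulation genes and inhibitors that fell and 0 that rose (median -0.15). On library totals the balance of the 20 turned, with 2 lower and 4 higher (median -0.011), while 6 complement genes were lower and 2 higher (median -0.11). With casein MR, 11 of 15 complement genes fell (median -0.84), against 20 of 20 of the others (median -0.51). Complement held both the 2 largest falls and the 4 genes that did not pass with casein MR, with log2 fold changes from -3.20 to 0.15, while the 20 others ran from -1.86 to -0.34. Without F11, each coagulation gene and inhibitor had a casein MR value of -0.81 or higher.

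Summed over genes, complement stood at 6507 ± 154 CPM in elemental MR and 6896 ± 542 CPM in elemental control, within overlapping ranges. It stood at 5157 ± 296 CPM in casein MR and 6994 ± 975 CPM in casein control (SD, n = 6 each), where 1 control library lay inside the MR range. A large part of these sums was C3 alone, with 3325 ± 238 CPM in elemental MR and 2583 ± 351 CPM in elemental control. C3 held 2717 ± 228 CPM in casein MR and 2446 ± 416 CPM in casein control. As CPM of the plain library total, the complement sum was 6717 in elemental MR and 6445 in elemental control, so the direction of that pair turned with the scaling. Coagulation genes and inhibitors summed to 25807 ± 640 CPM in elemental MR and 29402 ± 1623 CPM in elemental control, and to 20821 ± 749 CPM in casein MR and 30343 ± 4150 CPM in casein control. The 3 fibrinogen chains alone summed to 12608 ± 544 CPM in elemental MR and 15213 ± 869 CPM in elemental control, and 10165 ± 581 CPM in casein MR and 15683 ± 2881 CPM in casein control.

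**Figure D5:**
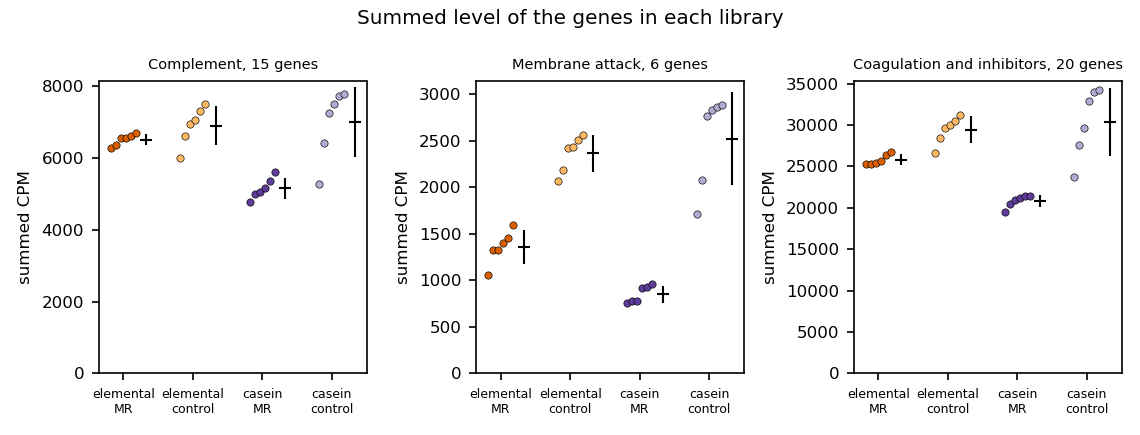
Summed CPM in each library of the 15 complement genes, the 6 membrane attack genes and the 20 coagulation genes and inhibitors, with mean and SD (n = 6). The membrane attack sum is lower in both MR groups than in their controls, while the complement sum of elemental MR (6291 to 6694 CPM) lies within the range of elemental control (5986 to 7499 CPM).

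The scaling of libraries shifts all of these values together. Without the trimmed-mean scaling, on plain library totals, the median of all genes tested moved by 0.14 for elemental MR and 0.27 for casein MR on the log2 scale. On that scale, 2 complement genes rose and 6 fell with elemental MR, and 4 of the 20 coagulation genes and inhibitors (F2, F5, F10 and Serpinc1) rose and 2 fell. With casein MR, 2 complement genes (C3 and Mbl2) rose and 10 fell, and 17 of the 20 others fell and 0 rose. The shares of all genes called on library totals are not given here, so these counts have no background beside them. The membrane attack genes except C8g kept their fall with elemental MR, and all 6 kept it with casein MR.

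The difference between the MR effects was tested as casein minus elemental, with all 4 groups. Of the 35 genes, 16 had a lower value with casein MR and 0 a higher one (45.7% called), against 2.34% of all genes tested (1.56% lower and 0.781% higher). All 35 differences were negative, from -1.73 to -0.13, with a median of -0.37. By class, 6 of 15 complement genes were called (median -0.43) and 10 of 20 coagulation genes and inhibitors (median -0.37). C9 had the largest difference (-1.73 ± 0.34, adjusted p = 0.00377), followed among called genes by C8g (-0.70 ± 0.10, adjusted p = 0.000158), C2 (-0.64 ± 0.15, adjusted p = 0.0205), Hc (-0.54 ± 0.11, adjusted p = 0.00377), C4b (-0.43 ± 0.10, adjusted p = 0.0189) and Masp2 (-0.33 ± 0.08, adjusted p = 0.024). C8a (-0.67 ± 0.21, adjusted p = 0.0993) and C8b (-0.85 ± 0.24, adjusted p = 0.0531) did not pass.

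Of the coagulation genes, Cpb2 (-0.50 ± 0.08, adjusted p = 0.000342), F9 (-0.49 ± 0.09, adjusted p = 0.00193), F2 (-0.44 ± 0.09, adjusted p = 0.00809), F13b (-0.44 ± 0.08, adjusted p = 0.00175), F5 (-0.41 ± 0.09, adjusted p = 0.00866) and F10 (-0.39 ± 0.08, adjusted p = 0.00697) were called. Fga (-0.36 ± 0.10, adjusted p = 0.0436), Kng1 (-0.36 ± 0.09, adjusted p = 0.0343) and the inhibitors Serpind1 (-0.41 ± 0.09, adjusted p = 0.015) and Serpinc1 (-0.36 ± 0.07, adjusted p = 0.00568) were called too. The other fibrinogen chains did not pass, at -0.35 ± 0.14 (adjusted p = 0.232) for Fgb and -0.36 ± 0.11 (adjusted p = 0.0712) for Fgg. The number of calls rested on single libraries: 27 genes were called without C_C_3407 and 11 without C_C_3413. Fga was lost in 20 and Kng1 in 11 of 24 refits without 1 library (highest adjusted p = 0.109 and 0.0878). Masp2 was lost in 4 (highest adjusted p = 0.0675), and C2 and C4b were lost without C_C_3413 (adjusted p = 0.0508 and 0.0529). On library totals 9 were called, and C2, C4b, Masp2, Fga, Kng1, Serpinc1 and Serpind1 were lost.

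No gene of the list was called between the control diets. In casein control against elemental control, 0 of the 35 genes were called, against 0.104% of all genes tested (0.0744% lower and 0.0298% higher), and the log2 fold changes ran from -0.23 to 0.20. No gene of the 35 had groups that did not overlap, against 0.655% of all genes tested. At an unadjusted p under 0.05, 3 were higher in casein control (C4b, Cpb2 and Serping1). The share of all genes at that cut is not given here, and these 3 are not read as a difference between the diets. DESeq2's Wald test called 0 of the 35 genes.

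The 2 restricted diets did differ. In casein MR against elemental MR, 27 of the 35 genes were lower and 0 higher (77.1% called), against 6.5% of all genes tested (3.78% lower and 2.72% higher). The median log2 fold change was -0.33, and 23 had groups that did not overlap (against 4.25%). This comparison shares its libraries with both MR comparisons. Among called genes, C9 was lowest at -1.53 ± 0.24 (adjusted p = 0.000161), and C8b (-0.91 ± 0.17, adjusted p = 0.000746), C8g (-0.65 ± 0.07, adjusted p = 8.09e-07) and C8a (-0.58 ± 0.15, adjusted p = 0.0148) followed, while C6 stood at -0.07 ± 0.22 (adjusted p = 0.912). F11 (-0.48 ± 0.15, adjusted p = 0.0478), C4b (-0.25 ± 0.07, adjusted p = 0.0317) and Mbl1 (-0.28 ± 0.08, adjusted p = 0.0378) were called but lost in 17, 6 and 12 of 24 refits without 1 library (highest adjusted p = 0.119, 0.0811 and 0.0977). On library totals 22 were called, and the 3 were lost with F12 and Serpinf2. C3 (-0.29 ± 0.10, adjusted p = 0.0849), Cfb (-0.22 ± 0.08, adjusted p = 0.103), Masp1 (-0.81 ± 0.27, adjusted p = 0.0759), Mbl2, C6, Fgb, Proc and Serping1 did not pass; C3, Fgb and Proc were called without C_C_3407 (adjusted p = 0.0305, 0.0396 and 0.0292), Cfb without C_MR_3431 (adjusted p = 0.0206) and Masp1 without C_MR_3433 (adjusted p = 0.0417).

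Levels can be compared between genes only per length. In CPM per kilobase of exon (GENCODE M21, GRCm38), Fgb was highest in all 4 groups, at 2196 ± 130.0 in elemental MR and 2639 ± 183 in elemental control, and at 1813 ± 131 in casein MR and 2780 ± 572 in casein control (SD, n = 6). Fgg held rank 2 and Vtn rank 3 in each group, and Masp1 was last. C9 held rank 27 of 35 in elemental MR and 15 in elemental control, and rank 31 in casein MR and 14 in casein control. C3 held rank 4 in both MR groups and rank 8 in both control groups. C6 and F11 were among the 6 lowest genes in each group.

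Other genes of the same systems were read from lists of pathway members. Beside this and the lists that follow stand the shares of all genes tested. With elemental MR these were 6.64% lower and 6.78% higher, and with casein MR 12.7% lower and 10.6% higher. Of 25 further complement genes tested, 6 fell and 0 rose with elemental MR, and 12 fell and 0 rose with casein MR; the median log2 fold changes were -0.14 and -0.12. C4bp, a fluid-phase regulator of C4b, fell, with log2 fold changes of -0.57 for elemental MR and -1.08 for casein MR (adjusted p = 5.23e-07 and 2.29e-12). C1s1, the protease of the C1 complex, fell likewise (-0.40 and -0.93; adjusted p = 2.01e-05 and 4.08e-12), and Susd4, a membrane regulator of complement, fell further (-2.60 and -2.79; adjusted p = 1.79e-08 and 1.37e-09). Of 22 further coagulation and fibrinolysis genes tested, 4 fell with elemental MR and 10 with casein MR, and 0 rose. Hgfac, the activator of hepatocyte growth factor, fell with both (-0.24 and -0.85; adjusted p = 0.0395 and 5.27e-09). Apoh, or beta-2-glycoprotein I, had values of -0.08 and -0.44 (adjusted p = 0.322 and 1.80e-07), and Serpina10, the inhibitor of factor Xa that works with protein Z, -0.07 and -0.48 (adjusted p = 0.446 and 2.00e-07).

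Of 7 genes of the vitamin K cycle and factor export, 2 rose and 1 fell with elemental MR, and 1 rose and 2 fell with casein MR. Nqo1, a quinone reductase, rose by 1.87 and 2.03 on the log2 scale (adjusted p = 6.38e-06 and 2.09e-07). Lman1, the cargo receptor that exports factors V and VIII from the endoplasmic reticulum, fell with both (-0.28 and -0.42; adjusted p = 0.000537 and 1.12e-06). Vkorc1l1, a relative of the vitamin K epoxide reductase, had values of -0.31 and -0.34 (adjusted p = 0.105 and 0.0435). Vkorc1, the reductase itself, rose with elemental MR (0.21, adjusted p = 0.00286) and was not called with casein MR. In casein MR against elemental MR, Vkorc1 was lower (-0.21, adjusted p = 0.00533).

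Most plasma proteins outside both cascades fell with casein MR too. Of 26 tested, 5 fell and 3 rose with elemental MR (median -0.06) and 21 fell and 0 rose with casein MR (median -0.37), and the difference between the MR effects was called lower for 9 and higher for 0. Over all genes tested, the difference was called lower for 1.56% and higher for 0.781%. Alb, serum albumin, stood at 62337 ± 2402 CPM in elemental MR and 79352 ± 2698 CPM in elemental control, and at 44121 ± 2408 CPM in casein MR and 71967 ± 5805 CPM in casein control (SD, n = 6). Apoc3 and Apoa1, apolipoproteins, fell with both diets. The log2 fold changes of Apoc3 were -0.51 with elemental MR and -1.14 with casein MR (adjusted p = 0.000111 and 9.02e-11), and those of Apoa1 were -0.52 and -0.91 (adjusted p = 0.00111 and 2.07e-07). Asns, asparagine synthetase, a gene outside these systems that responds to amino acid shortage, stood at 70.6 ± 8.38 CPM in elemental MR and 7.57 ± 2.55 CPM in elemental control, and at 62.3 ± 7.27 CPM in casein MR and 1.97 ± 1.09 CPM in casein control.

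Of 13 acute phase genes outside the list, 7 fell and 1 rose with elemental MR, and 11 fell and 1 rose with casein MR. The orosomucoid genes led, with log2 fold changes of -1.73 and -3.35 for Orm1, -1.44 and -2.39 for Orm2 and -2.47 and -4.73 for Orm3 (elemental MR and casein MR; highest adjusted p = 0.00235). These 3 genes are near-identical copies, so single values are uncertain. Of 19 hepatocyte transcription factors and acute phase signalling genes, 1 fell with elemental MR and 4 fell with casein MR, and 0 rose. Of all genes tested, 6.64% fell with elemental MR and 12.7% with casein MR. Cebpa, a C/EBP factor, fell with both (-0.27 and -0.47; adjusted p = 0.01002 and 9.84e-06). Nr1h4, the bile acid receptor, had values of -0.12 and -0.32 (adjusted p = 0.362 and 0.00263), and Bcl6, a repressor, 0.11 and -2.22 (adjusted p = 0.942 and 0.0111).

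Markers of cell types were read beside these results. Of all genes tested, 6.64% were lower and 6.78% higher with elemental MR, and 12.7% lower and 10.6% higher with casein MR. Of 10 hepatocyte markers, 3 fell with elemental MR and 8 with casein MR, and 0 rose. Their summed level ran from 93717 to 101316 CPM in elemental MR and from 116391 to 127774 CPM in elemental control, and from 68009 to 76755 CPM in casein MR and from 107219 to 123709 CPM in casein control. These markers include plasma protein genes, and their part in the results was not tested. Of 12 Kupffer cell and macrophage markers, 0 were called in either MR comparison, and the sums ran from 416 to 652 CPM in elemental MR and from 473 to 723 CPM in elemental control, and from 547 to 907 CPM in casein MR and from 418 to 709 CPM in casein control. Endothelial markers numbered 10 tested, with 1 higher in elemental MR and 1 lower in casein MR, and stellate markers 10 tested, with 2 lower in elemental MR and 1 higher in casein MR. That 1 was Des, desmin, with 46.2 CPM in C_MR_3438, the library with the high muscle markers, against a median of 3.19 CPM over all libraries. Of 6 cholangiocyte markers tested, 1 fell with elemental MR and 3 with casein MR; of 6 erythroid markers, 2 and 1 fell. No lymphocyte, neutrophil or platelet marker was called.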

How the data were processed

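RNA levels in 24 mouse liver libraries were analysed, in 4 groups of 6 taken from the sample titles. The deposited raw table holds read counts per Ensembl gene, as whole numbers. The normalized table, as deposited, gives a signal that equals each raw count over a size factor of its library (0.745 to 1.32), and was used for gene symbols only. For the aligner, the counting tool, the genome build and strand use, a statement is not given in the sources used here. The deposited table named 13002 genes, a reference table named 2119 more, and 40 stayed without a symbol. Every one of the 60 pairs of libraries within groups differed.

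The tests used edgeR 4.0.16 in R 4.3.3, with its function filterByExpr against low counts (13441 genes kept, with 99.93% of reads) and TMM scaling of library sizes. A single quasi-likelihood model held a mean for each group and gave 5 comparisons; the code was also tested on simulated data. A standard error is the log2 fold change over the root of its F statistic. The common biological coefficient of variation was 0.159, and library totals of 13.5 to 20.8 M reads set the counting precision. The MR comparisons share no library with each other; the other 3 comparisons share libraries with them.

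The genes, the lists of related genes and markers, and the rules for naming genes were chosen with earlier results of these data known. The rule for values per library took the called genes with the smallest p, 4 of each class in casein MR and 4 in elemental MR. It also took every gene called in the difference between the MR effects. Ranges over libraries are given besides for C3, C8a, C8b, Fgb and Fgg, which this rule did not take. Of other gene lists, at most the 3 genes with the smallest p in casein MR are named, and Vkorc1 besides, with albumin and asparagine synthetase as outside genes. Cell type markers are named where a library stood out. Lists are described by counts and medians, with no set test. Overlaps of exons came from GENCODE M21, and promoter windows from RefSeq (GRCm38.p6), searched in Python 3.11.15. Alternatives were DESeq2 1.42.0 (size factors, Wald test), limma 3.58.1 (voom with quality weights), sva 3.50.0 (1 surrogate variable), upper quartile scaling, other filters on low counts, only the groups compared, an adjusted p under 0.01, and leaving out each library in turn. No library was left out of the main test, and 0 per-sample columns were unused.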

Additional observations from a re-analysis of the deposited data

Results flagged for a closer look

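For 16 genes the effect of methionine restriction with casein differed from that with elemental amino acids by the test of the difference itself, against 2.34% of all genes tested. Of the 16, 11 were called in every refit without 1 library, while C2, C4b, Masp2, Fga and Kng1 were lost in some. On library totals those genes were lost too, with Serpinc1 and Serpind1. The log2 differences, casein minus elemental, were -1.73 for C9, -0.70 for C8g, -0.64 for C2, -0.54 for Hc, -0.43 for C4b and -0.33 for Masp2 in complement. In coagulation they were -0.50 for Cpb2, -0.49 for F9, -0.44 for F2, -0.44 for F13b, -0.41 for F5, -0.39 for F10, -0.36 for Fga and -0.36 for Kng1. Among the inhibitors they were -0.41 for Serpind1 and -0.36 for Serpinc1.

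Single libraries stood far from the other 5 of their group in 5 of 148 sets of values. Each set was a gene, or a class sum of these genes, in a group, so the sets are not independent. Chance alone flags about 1 in 20, or 7.4. E_C_3428 was low for F10 (413 CPM), F5 (977 CPM) and Hc (379.5 CPM). E_C_3430 was high for Fga (2356 CPM), and C_MR_3425 was high for Mbl1 (179 CPM).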

How the results depend on the processing

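No paired analysis was possible because the groups share no replicate numbers. Of the 89 calls, all kept their direction in every alternative run, and all remained past the threshold with DESeq2 size factors, a filter of at least 1 CPM, the DESeq2 Wald test, limma-voom with quality weights and 1 surrogate variable. Calls were lost for 4 with upper quartile scaling, 2 with no filter on low counts, 2 with only the groups compared, 17 at an adjusted p under 0.01 and 22 with library totals and no TMM, an alternative chosen after seeing the data. The number called in the difference between the MR effects, 16, was 10 at an adjusted p under 0.01, 25 with the DESeq2 Wald test and 9 with library totals. When 1 library was left out it ran from 11 to 27, the number for elemental MR from 12 to 18, for casein MR from 30 to 32, for the restricted diets from 24 to 30 and for the control diets stayed at 0. With library totals the median log2 fold changes of complement, and of coagulation and inhibitors, were -0.11 and -0.011 for elemental MR, and -0.58 and -0.25 for casein MR. They were -0.21 and -0.23 for casein MR against elemental MR, and -0.25 for coagulation and inhibitors in the difference. With Serping1 and Vtn counted as complement, the casein MR median of complement was -0.71. As a share of the library total, scaled like CPM, the complement sum was 6717 in elemental MR and 5728 in casein MR. That of coagulation and inhibitors was 26638 in elemental MR, 27490.4 in elemental control and 23144 in casein MR. In percent of that total, complement held 0.672% in elemental MR and 0.645% in elemental control, and 0.573% in casein MR and 0.648% in casein control. Coagulation and inhibitors held 2.31% in casein MR and 2.81% in casein control. Over the reads outside the 20 most abundant genes, scaled like CPM, complement summed to 9942 in elemental MR and 10289 in elemental control. It summed to 8154 in casein MR and 10180 in casein control. Coagulation and inhibitors, with their members among those 20 left out, summed to 26649 in elemental MR and 22003 in casein MR. Their control values on that scale are not given here, so these 2 sums show no MR effect. Apart from the scaling itself, the cause of these shifts was not tested. Depth limited Masp1 most, at 27.9 reads a library.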
